A study of Mus musculus with 36 samples.

Results

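Endothelial cells of the mouse left ventricle were compared 3 days after myocardial infarction (MI) with those of sham-operated hearts. A well of a sorted plate was taken as endothelial when it held at least 1000 unique molecular identifiers (UMIs, counts of single captured RNA molecules) and met 3 limits on marker genes. The 8 endothelial genes Pecam1, Cdh5, Egfl7, Kdr, Emcn, Cav1, Ly6c1 and Fabp4 had to reach 0.6% of its UMIs. The 8 macrophage genes Lyz2, Ctss, C1qa, C1qb, C1qc, Cd68, Csf1r and Mrc1 had to stay under 1%, and the 5 fibroblast genes Col1a1, Col1a2, Col3a1, Dcn and Lum under 2%. This gave 203 endothelial wells on 12 plates, of 1354 wells with at least 1000 UMIs there. Over all 36 plates the rule found 378 endothelial wells among 3146.

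The study sorted single cardiac cells into multi-well plates and counted polyadenylated RNA by SORT-seq, a plate-based method that barcodes each well. All mice were C57BL/6 males of 8 weeks, and the tissue was the infarcted region of the left ventricle or its counterpart in sham hearts. MI was induced by tying off the left anterior descending artery for good, with collection at day 3 (38 endothelial wells on 4 plates with 7, 12, 9 and 10 wells). Sham surgery was collected at day 1 (103 wells on 4 plates) and at day 14 (62 wells on 4 plates). Ischaemia-reperfusion (IR), a ligation released after 1 hour, had 18 endothelial wells on 2 plates at day 3. No day 3 sham hearts were analysed here, and the 2 sham groups carried equal weight in each contrast. The MI plates were a separate set of libraries, so the surgery and the library set cannot be told apart in any value below. The labels do not tie plates to mice. The paper used fewer mice for MI than there are MI plates tested here. Some of these MI plates therefore share a mouse, and plates of the other groups may do so too. Each n counts plates and not mice, and p-values measure the spread between plates only.

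Endothelial cells line the vessels of the heart, and their capillary form takes up fatty acids from the blood for the working muscle. When tissue is short of blood flow, endothelial cells can leave this quiescent state, divide and sprout. A sprout is led by a tip cell, which degrades and deposits matrix, and is followed by dividing stalk cells. Apelin, insulin-like growth factor binding protein 3 and angiopoietin-2 are among the secreted products known from such cells.

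Endothelial markers that the rule did not use were present in both groups, although 11 of 24 tested identity genes fell and 2 rose, as described further on. Cldn5, the tight junction protein of endothelium, was at 302 ± 167 CPM (UMIs per 1000000 nuclear-gene UMIs of the plate; SD, n = 4) on MI plates and 275 ± 126 CPM (SD, n = 8) on sham plates, a log2 fold change of -0.00 (adjusted p = 1.00, edgeR). Esam, Robo4 and Ramp2, at 0.33, 0.20 and 0.08 on the same log2 scale, did not pass the test either. The genes of the rule are given without a test. Pecam1 averaged 1601 CPM on MI plates and 943 on sham plates, Cdh5 985 and 944, Kdr 273 and 529.6, Ly6c1 249 and 897, and Fabp4 3907 and 9384. At the limit of the rule, the lowest endothelial share inside it was 0.6109% on MI plates, 0.6239% in day 1 sham and 0.6014% in day 14 sham. The highest share just outside was 0.5748%, 0.527% and 0.5418%. Between 0.6% and 0.8% lay 12 of the 38 MI wells, against 4 and 8 of the day 1 and day 14 sham wells.

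Depth and foreign RNA moved with the groups. The median MI well held 17179 UMIs and 4473.5 genes, against 3133 UMIs and 1595 genes in day 1 sham and 3021.5 UMIs and 1555.5 genes in day 14 sham. Over a plate the endothelial UMIs summed to between 19322 and 297581, and the deepest well held 11.1% to 54.2% of a plate's sum. The highest of these shares were 54.2% on day 1 sham replicate 4, 32.9% on day 1 sham replicate 3 and 31% on MI replicate 1. Cardiomyocyte markers made up 0.003% to 0.0393% of the nuclear UMIs on MI plates and 1.12% to 3.87% on sham plates. The mitochondrial share was 7.98% to 12% on MI plates and 29.6% to 55.0% on sham plates. Macrophage markers made up 0.0524% to 0.106% on MI plates and 0.0104% to 0.261% on sham plates. Some wells resembled a well of another plate. A match meant that a well correlated best with the same-numbered well of the other plate, ahead of every other well by at least 0.05 in correlation over 3000 genes, and the counts need not be identical. By this measure 1 of 27 endothelial wells of day 1 sham replicate 2 matched replicate 3, and all 8 endothelial wells of day 14 sham replicate 7 matched wells of the left-out replicate 2.

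Endothelial wells formed a smaller share of the wells after MI. On the 5 MI plates they were 4.70%, 7.89%, 5.23%, 7.14% and 2.78% of the wells with at least 1000 UMIs, a mean of 5.55% ± 2.03 (SD, n = 5). The 9 sham plates ranged from 10.1% to 27.7% with a median of 21.9%, a mean of 21.9% ± 5.25 (SD, n = 9). Every MI plate lay below every sham plate. The difference was -16.3 percentage points (exact permutation test over plates, two-sided p = 1.0e-03, the smallest this design can give). Some of the MI plates permuted share a mouse, as given above. Macrophage wells, by the macrophage genes at 1% or more and the endothelial genes under 0.6%, numbered 139 on the tested MI plates and 17 and 5 on the tested day 1 and day 14 sham plates. A share of wells counts what was sorted and kept. Fewer endothelial cells, more cells of other types and endothelial wells that missed the 0.6% limit cannot be told apart in it.

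**Figure D1:**
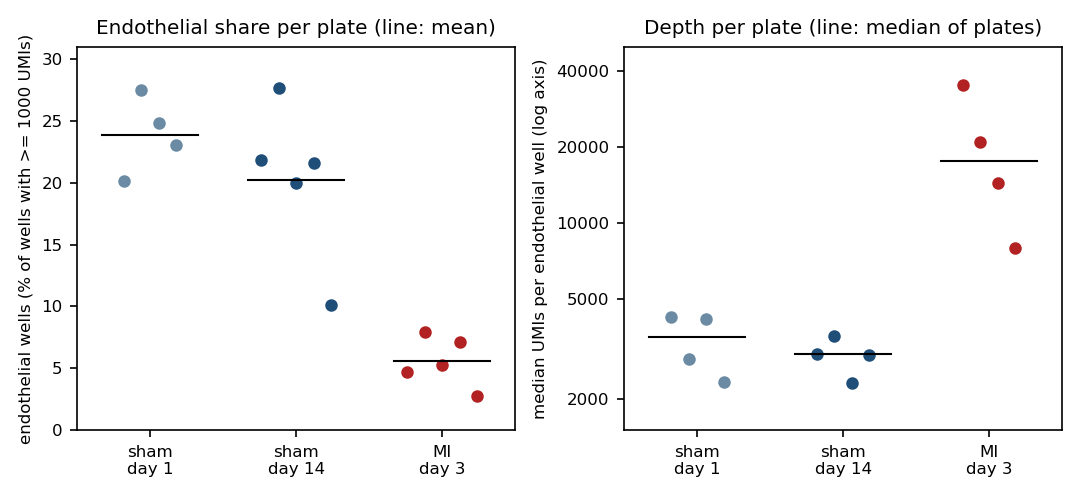
Left, endothelial wells as a percentage of wells with at least 1000 UMIs, 1 point a plate, with the mean of each group as a line. Right, median UMIs per endothelial well of each plate on a log axis, with the median of the plates as a line. The share ran from 2.78% to 7.89% on the 5 MI plates, and the 4 tested MI plates were deeper (7912.5 to 35195 UMIs per well) than the sham plates (2308.5 to 4219).

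The UMIs of the endothelial wells were summed per plate, and 2863 genes that reached 89.1 CPM (10 UMIs at the median summed depth) on at least 4 of the 12 plates were tested between MI and sham. Of these, 1377 genes (48.1%) changed at an adjusted p under 0.05, 681 upward (23.8%) and 696 downward (24.3%). The groups were also fully separate, with every MI plate beyond every sham plate, for 669 genes (23.4%). The change was therefore wide, and each list of genes below is read against these shares and against the median log2 fold change of all tested genes, 0.01. With every well thinned to 1000 UMIs the count was 142 of 263 genes, with no filter on low counts 2401 of 15556, and with an endothelial share of at least 1.2%, which left 1 MI plate, 239 of 3719. Of the 103 named genes called, 93 were tested in that last setting, where 44 kept the call, 44 lost it and 5 changed sign. With the deepest well of each plate left out, an alternative added after the data were seen, 1108 of 2305 genes (48.1%) changed, with 16 increases among 16 tested cell cycle genes, 10 among 12 of sprouting, and 10 decreases among 13 of capillary fatty acid transport. The minimum also favours a direction. Of the tested genes 604 reached it on under 4 sham plates and so were tested only because of their MI plates, and 295 of these rose and 1 fell. Of the 2259 that reached it on at least 4 sham plates 386 rose and 695 fell, with a median of -0.23. The route by which list members came to be tested is given beside the lists it touches most. The 2 sham groups differed in 4 genes (0.140%) by edgeR, with 392 genes at an unadjusted p under 0.05.

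Cell cycle genes rose as a list. Of 26 such genes 21 were tested, 20 rose and 0 fell, with a median log2 fold change of 2.67, and 13 of them were separate between the groups. Of the 21, however, 16 reached the minimum on under 4 sham plates and so could be tested only because of their MI plates, which favours a rise, and 15 of these rose. The other 5, Pcna, H2afz, Ccnd1, Tubb5 and Tuba1b, all rose, with a median of 1.99. With no filter on low counts all 26 were tested and 25 rose, where 1438 of all 15556 genes rose. The one of the 21 that did not pass was Tyms, thymidylate synthase, at 0.40 (adjusted p = 0.44). Cdk1, the kinase that drives entry into mitosis (chr10:69335146-69352938 in GRCm38, minus strand), stood at 524, 174, 158 and 259 CPM on MI replicates 1 to 4. On the sham plates its lowest and median were 0 and its highest 92.0 CPM. Cdk1 was present on every MI plate, and its 3 sham UMIs all came from 1 well of day 14 sham replicate 8. The fitted log2 fold change was 6.32 (SE 0.70, adjusted p = 2.0e-07), and the ratio of pooled CPM was 88.5 with a 95% counting interval of 29.9 to 432 (52.9 without MI replicate 1). Without day 14 sham replicate 8 the list had 24 increases among 25 tested genes (median 3.20). With wells chosen after thinning to 1000 UMIs, an alternative added after the data were seen, it had 16 among 16 (median 2.49). Here and in the lists of veins, mesenchymal transition, fatty acid transport, antigen presentation, interferon and immediate early genes below, the direction with 0 calls also had 0 genes at an unadjusted p under 0.05 and 0 by DESeq2.

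Mki67, which encodes the proliferation antigen Ki-67 (chr7:135689784-135716361), was at 1011, 421, 271 and 335 CPM on the MI plates and at 0, 6.69 and 460.2 CPM as the lowest, median and highest of sham. Here the groups overlapped through day 14 sham replicate 8, and the log2 fold change was 4.33 (SE 0.63, adjusted p = 4.5e-06). On that plate, with 8 endothelial wells, the single well that held the Cdk1 UMIs also held 13 of the 15 Mki67 UMIs, 124 of the 156 UMIs of the cell cycle list and 80 of the 85 UMIs of the macrophage markers outside the rule. The part of those markers in the overlap was not tested. H2afz, a histone variant deposited on chromatin (chr3:137864487-137866922), was at 1378, 1109, 874 and 901 CPM, above the sham range of 51.8 to 460.2 CPM. It rose by a log2 fold change of 2.68 (SE 0.29, adjusted p = 7.0e-08).

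The genes that rose act in different phases of the cycle. Of the machinery of DNA synthesis, Rrm2, a subunit of ribonucleotide reductase (chr12:24708241-24714146), was at 346, 197, 271 and 249 CPM on the MI plates, and its log2 fold change was 5.56 (SE 0.50, adjusted p = 3.9e-09). Tk1, thymidine kinase (chr11:117815526-117826092), was at 272, 131, 196 and 173 CPM on MI plates against 2 UMIs over all sham plates, a pooled ratio of 84.8 (95% counting interval 23.1 to 706), or 163 without day 14 sham replicate 8. Pcna, the sliding clamp of DNA polymerase (chr2:132249162-132253314), rose from 119 ± 43.7 CPM (SD, n = 8) to 505 ± 167 CPM (SD, n = 4), a log2 fold change of 1.99. Of the mitotic genes, Top2a, the topoisomerase that untangles sister chromatids, and the cyclins Ccna2 and Ccnb2 rose by 4.96, 5.85 and 5.04. Ube2c, a ubiquitin-conjugating enzyme of mitotic exit that is not on the list, was at 786, 371, 143 and 326 CPM on the MI plates and rose by 4.68. Cdk4 and Ccnd1, which act at the start of the cycle, rose by 1.73 and 0.73. Cdkn1c, which encodes the cyclin-dependent kinase inhibitor p57, went the other way. It was at 3.36, 3.86, 0 and 57.5 CPM on the MI plates and at 169, 486 and 725 CPM as lowest, median and highest of sham, and fell by 5.38 on the log2 scale (SE 0.55, adjusted p = 3.0e-08).

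The promoters of 4 mitotic genes are shown because these genes rose together and because TTTGAA and CCAAT are letters known from promoters of genes used late in the cell cycle. Each window runs from 250 bases before to 50 bases after the start of the gene (RefSeq, GRCm38.p6), is printed 5′ to 3′ on the gene's strand, and has both motifs in capitals on either strand (TTTGAA or TTCAAA for the first motif and CCAAT or ATTGG for the second). The windows are chr10:69352863-69353162 for Cdk1, chr9:70421505-70421804 for Ccnb2, chr11:99024140-99024439 for Top2a and chr7:135716330-135716629 for Mki67, all on the minus strand, and no match overlapped another.
Cdk1: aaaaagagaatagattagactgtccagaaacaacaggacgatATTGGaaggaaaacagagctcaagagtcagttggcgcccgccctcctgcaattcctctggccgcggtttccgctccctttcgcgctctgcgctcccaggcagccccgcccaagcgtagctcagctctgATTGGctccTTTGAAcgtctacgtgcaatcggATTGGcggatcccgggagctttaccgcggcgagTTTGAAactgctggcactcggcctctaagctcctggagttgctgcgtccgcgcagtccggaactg
Ccnb2: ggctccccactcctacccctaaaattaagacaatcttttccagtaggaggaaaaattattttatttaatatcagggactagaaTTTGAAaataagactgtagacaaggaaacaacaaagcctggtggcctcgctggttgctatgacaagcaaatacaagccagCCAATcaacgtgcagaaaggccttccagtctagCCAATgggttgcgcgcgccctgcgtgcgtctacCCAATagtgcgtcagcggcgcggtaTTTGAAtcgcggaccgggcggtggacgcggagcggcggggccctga
Top2a: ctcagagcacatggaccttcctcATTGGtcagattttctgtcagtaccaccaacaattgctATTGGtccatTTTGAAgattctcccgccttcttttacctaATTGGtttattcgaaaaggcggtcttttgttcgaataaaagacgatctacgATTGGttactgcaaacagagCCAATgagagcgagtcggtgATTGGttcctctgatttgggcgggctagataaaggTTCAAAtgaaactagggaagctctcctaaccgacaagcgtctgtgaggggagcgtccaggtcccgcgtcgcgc
Mki67: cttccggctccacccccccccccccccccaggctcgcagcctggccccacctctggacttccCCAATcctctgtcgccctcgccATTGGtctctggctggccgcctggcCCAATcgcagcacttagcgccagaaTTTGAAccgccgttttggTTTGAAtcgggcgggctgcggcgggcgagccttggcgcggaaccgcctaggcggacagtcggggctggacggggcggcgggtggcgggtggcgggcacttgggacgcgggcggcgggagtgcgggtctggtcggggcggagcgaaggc
Cdk1, Ccnb2 and Mki67 each held 2 matches to TTTGAA and 3 to CCAAT, and Top2a held 2 and 6. For the 20 cell cycle genes that rose, 17 promoters of 16 genes were in the table. Of these, 6 (35.3%) held TTTGAA, 14 (82.4%) held CCAAT and 6 (35.3%) held both. Among all 32851 promoters of 27025 genes, 17.9% held TTTGAA, 37.4% held CCAAT and 6.95% held both. The promoters of Cenpf, a kinetochore protein, and Hmgb2, a chromatin protein, were the other two with both motifs. Those of Birc5, Cdk4 and Tuba1b held neither. A match describes letters in the window and not a bound site.

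Genes of sprouting and tip cells also rose as a list. Of 20 listed genes 12 were tested, 10 rose and 1 fell, with a median of 1.75, and 8 of the called genes were separate between the groups. Apln, Angpt2, Mmp14 and Marcksl1 reached the minimum on under 4 sham plates and were tested only because of their MI plates, and of the other 8 genes 6 rose and 1 fell, with a median of 1.35. With no filter on low counts 17 of 20 rose and 1 fell. Apln, the gene of the secreted peptide apelin (chrX:48025146-48034853), was at 269, 491, 648 and 412 CPM on the MI plates. The sham plates ran from 0 through a median of 1.96 to 129 CPM. The groups did not overlap, the log2 fold change was 4.94 (SE 0.51, adjusted p = 3.3e-08), and on the MI plates the level was 26.5 times that of the other wells. Its receptor gene Aplnr, at 326, 502, 580.1 and 374 CPM on the MI plates, rose by 1.43 (SE 0.29, adjusted p = 2.9e-04).

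Igfbp3, the secreted binding protein of insulin-like growth factors (chr11:7206086-7213923), was at 783, 1024, 1220 and 2291 CPM on the MI plates against 23.5, 89.6 and 215 CPM as the lowest, median and highest of sham. The lowest MI plate lay above the highest sham plate, with a log2 fold change of 3.97 (SE 0.36, adjusted p = 3.8e-09). Mcam, the adhesion molecule CD146 (chr9:44134469-44142727), rose from 135 ± 82.0 CPM (SD, n = 8) to 1166 ± 352 CPM (SD, n = 4), a log2 fold change of 2.99. Mmp14, a membrane-bound metalloproteinase that cuts collagen at the front of a sprout (chr14:54431612-54445364), was at 467, 495, 1138 and 575 CPM on the MI plates and rose by 4.60 (SE 0.40, adjusted p = 2.0e-09). Angpt2, angiopoietin-2, was at 37.0, 182, 158 and 115 CPM and rose by 2.00 (adjusted p = 0.0024), although day 14 sham replicate 7 reached 155 CPM. Pdgfb, the growth factor that recruits pericytes to a sprout, had a log2 fold change of -0.31 and did not pass (adjusted p = 0.25). Rgs5, a regulator of G-protein signalling expressed in sprouts and in pericytes, fell by 4.81, from a sham range of 61.4 to 387 CPM to 0, 15.5, 0 and 19.2 CPM on the MI plates.

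Other genes of this list did not reach the minimum on 4 plates and are given by their pooled UMIs. Esm1, a tip cell proteoglycan, had 102 UMIs on the MI plates and 1 on the sham plates, a ratio of CPM of 109 with a 95% counting interval of 19.1 to 4337. Pgf, placental growth factor, had 147 and 8 UMIs, a ratio of 19.6 (9.69 to 46.2). Itgb3, the integrin beta 3 chain, had 112 and 2 UMIs, a ratio of 59.7 (16.1 to 499). Plaur, the urokinase receptor, had 99 and 4 UMIs, a ratio of 26.4. Leaving out each plate in turn, added after the data were seen, moved several of these ratios by over 1.5 times. Without day 1 sham replicate 4 that of Pgf was 34.8 and that of Itgb3 106, without day 14 sham replicate 5 that of Itgb3 was 108, and without MI replicate 2 that of Esm1 was 71.2. The single sham UMI of Esm1 came from day 14 sham replicate 1. Kcne3, a potassium channel subunit, had 20 UMIs on the MI plates and 0 in sham, at least 7.11-fold higher with a floor of 3 UMIs over the sham group. Intervals and floors cover counting error only.

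**Figure D2:**
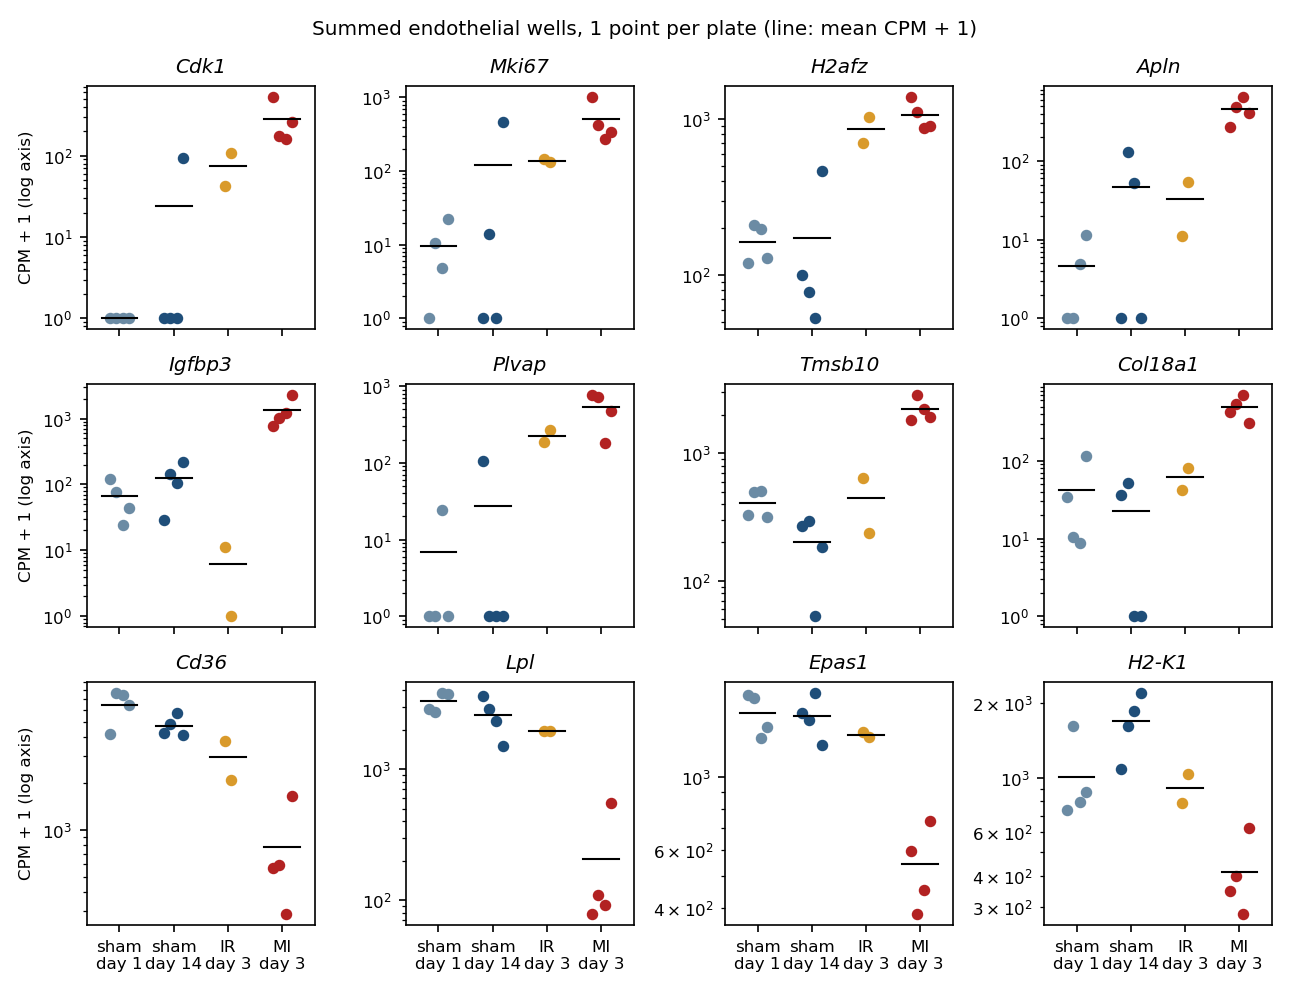
CPM plus 1 on a log axis for 12 genes in endothelial wells summed per plate, 1 point a plate, with the group mean as a line, for day 1 sham, day 14 sham, IR day 3 and MI day 3. Apln, Igfbp3, Tmsb10 and Col18a1 sat higher on every MI plate than on any sham plate, Cd36, Lpl, Epas1 and H2-K1 lower, and Mki67 overlapped through 1 day 14 sham plate at 460.2 CPM.

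Among all genes, 459 of the 2863 (16.0%) changed with separate groups and were at least as high in endothelial wells as in the other wells of the same plates. The 12 with the largest increase were AA467197, Inhbb, Cdk1, Fam167b, Tk1, Rrm2, Tubb6, Prnd, Dbn1, Apln, Lmnb1 and Ube2c. Ranking by fold change favours genes near 0 on the sham plates. Of these 12, Cdk1, Rrm2 and Apln reached the minimum on under 4 sham plates, and AA467197, Fam167b and Tk1 had 2 sham UMIs each. These genes were tested only because of their MI plates, which favours a rise. AA467197 (chr2:122636986-122641191) was at 269, 425, 633 and 709 CPM on the MI plates and had 2 UMIs over all sham plates, a pooled ratio of 186 (95% counting interval 51.0 to 1538) and a fitted log2 fold change of 7.86 (SE 0.55, adjusted p = 5.3e-10). Inhbb, a subunit of activin and inhibin (chr1:119415465-119422248), was at 138, 255, 331 and 230.0 CPM on the MI plates and rose by 6.35. Prnd, the prion-like protein doppel (chr2:131950861-131956130), was at 665, 409.6, 519.8 and 268 CPM and rose by 5.34. It was 82.9 times higher in the endothelial than in the other wells of the MI plates. Fam167b had 129 UMIs on the MI plates and 2 in sham, a ratio of 68.8 (18.7 to 574), and both sham UMIs came from day 14 sham replicate 1. Without day 1 sham replicate 2 the pooled ratio of AA467197 was 325. Tubb6, a beta-tubulin, and Dbn1, the actin-binding protein drebrin, rose by 5.48 and 5.01, and Lmnb1, a lamin of the nuclear envelope, by 4.82.

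Genes of capillary fatty acid uptake and transport fell. Of 17 listed genes 14 were tested, 0 rose and 11 fell, with a median of -2.51, and 10 were separate between the groups. Of the 14, 10 reached the minimum on under 4 MI plates, which favours a fall, and 9 of these fell. Of the other 4, Cd36 and Aqp1 fell and Gpihbp1 and Fabp5 did not pass, with a median of -1.38. With no filter 11 of 17 fell. Cd36, the fatty acid translocase (chr5:17781690-17888801), was at 571, 595, 286 and 1648 CPM on the MI plates against 4112, 5282 and 7734 CPM as lowest, median and highest of sham. The highest MI plate, replicate 4, stayed below the lowest sham plate, and the gene fell by 2.94 on the log2 scale (SE 0.36, adjusted p = 3.5e-07). Cd36 was 4.13 times higher in the endothelial than in the other wells of the sham plates. Cd300lg, a capillary surface glycoprotein (chr11:102041509-102055620), was at 104, 46.4, 30.1 and 316 CPM on the MI plates, against a sham range of 1192 to 1760 CPM, and fell by 3.66 (SE 0.38, adjusted p = 3.9e-08).

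Tcf15, a transcription factor of heart capillaries that drives fatty acid transport (chr2:152143561-152149097), was at 16.8, 61.8, 30.1 and 134 CPM on the MI plates, below the sham range of 306 to 767 CPM, and fell by 3.25 (SE 0.39, adjusted p = 2.8e-07). Meox2, its partner, had a log2 fold change of -0.72 that did not pass (adjusted p = 0.082). Aqp7, a glycerol channel, Timp4, a metalloproteinase inhibitor, and Aqp1, a water channel, fell, with log2 fold changes of -3.90, -3.92 and -2.51. Timp4 was at 3.36, 3.86, 0 and 173 CPM on the MI plates, and its log2 fold change without MI replicate 4 was -6.75. Pparg, a fatty acid-sensing nuclear receptor, Car4, a carbonic anhydrase of the capillary surface, and Rgcc fell as well, at -2.21, -2.17 and -2.19. Gpihbp1, which anchors lipoprotein lipase on the capillary wall, was at 659, 912, 686 and 1553 CPM on the MI plates and did not pass (-0.25, adjusted p = 0.48), nor did Fabp5, a fatty acid-binding protein (-0.03, adjusted p = 0.94). Lpl, lipoprotein lipase, and Acsl1, an acyl-CoA synthetase, fell too, at -4.08 and -2.50, but on the sham plates both were lower in the endothelial than in the other wells (0.341 and 0.417 times). Cardiomyocyte markers were higher on the sham plates as given above, and their part in the fall of Lpl and Acsl1 was not tested. Among wells with under 5% of cardiomyocyte UMIs the list had 9 decreases among 12 tested genes (median -2.61), and among wells thinned to 1000 UMIs 4 among 5 (median -3.02). With an endothelial share of at least 1.2%, where MI replicate 4 was the one MI plate left, 2 of 13 fell.

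By the criteria used for the increases, the genes with the largest decrease included Slc26a10, Cdkn1c, Alpl, Adh1, Rgs5, Fmo2, Bambi-ps1, Mageb16-ps1, Prickle1, Timp4 and Aqp7. Slc26a10, of a family of anion transporters, was at 0, 0, 0 and 28.8 CPM on the MI plates and at 215, 343 and 559 CPM as lowest, median and highest of sham. Its 3 UMIs on the MI plates all came from replicate 4, and the pooled level was 96.0 times higher in sham (95% counting interval 32.5 to 468). Alpl, alkaline phosphatase, had 2 UMIs on the MI plates, with a pooled level 48.8 times higher in sham (13.2 to 408). Adh1, an alcohol dehydrogenase, and Fmo2, a flavin-containing monooxygenase, had 3 UMIs each there, and were 33.1 and 26.6 times higher in sham (lower ends of the intervals 11 and 8.79). Without MI replicate 1 the pooled level was 60.0 times higher in sham for Slc26a10 and 30.5 times for Alpl, whose 2 UMIs on the MI plates both came from replicate 2, and without MI replicate 4 it was 86.3 times higher for Adh1. Bambi-ps1 and Mageb16-ps1 are pseudogenes, whose reads can be shared with their parent genes, and fell, at -4.13 and -4.09.

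Endothelial identity genes changed in both directions. Of 27 listed genes 24 were tested, 2 rose and 11 fell, with a median of -0.51, and 7 were separate between the groups. With an endothelial share of at least 1.2%, on 1 MI plate, 2 rose and 1 fell, with a median of 0.08. Epas1, the hypoxia-inducible factor HIF-2 alpha (chr17:86753700-86833410), was at 598, 383, 452 and 738 CPM on the MI plates, below the sham range of 1258 to 1811 CPM, and fell by 1.61 (SE 0.23, adjusted p = 3.1e-06). Sdpr, a structural protein of caveolae, fell by 2.34 from 2467 ± 529 CPM (SD, n = 8) to 716, 328, 414 and 594 CPM. Clec14a, the phosphatase Ptprb and the angiopoietin receptor Tek fell, at -1.62, -1.24 and -1.10, and Eng, a co-receptor of the TGF-beta family, fell by 0.78. The 2 that rose were Cd93 and Ecscr, surface proteins linked to endothelial migration. Cd93 was at 2608, 2013, 2290 and 3144 CPM on the MI plates against 1105 ± 161 CPM (SD, n = 8) in sham, a log2 fold change of 1.09 (SE 0.20, adjusted p = 9.1e-05), and Ecscr rose by 2.04. With wells thinned to 1000 UMIs the call of Cd93 was lost, and over all settings its log2 fold change ran from 0.48 to 1.84.

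Vessel-type genes did not move as one list. Of 17 genes of veins and activated endothelium 6 were tested, of which 2 rose and 0 fell, with a median of 0.18. The 2 were the ones tested only because of their MI plates. The count was 4 of 6 (median 1.96) with wells chosen after thinning, an alternative added after the data were seen, and 0 of 6 with an endothelial share of at least 1.2%. Plvap, the protein of the diaphragms of fenestrae and caveolae (chr8:71497765-71511752), was at 769.5, 730.3, 181 and 469.6 CPM on the MI plates and at 0, 0 and 106 CPM as lowest, median and highest of sham. The groups did not overlap, and it rose by 4.45 (SE 0.51, adjusted p = 1.5e-07), or by 7.34 without day 14 sham replicate 1. Lrg1, a secreted glycoprotein of activated vessels, rose by 1.59 (adjusted p = 0.032), but lost the call in 12 of 30 alternative settings, among them DESeq2, each sham group alone, and leaving out day 14 sham replicate 1 or 7 or MI replicate 2 or 3 (log2 fold changes of 1.22, 1.51, 1.40 and 1.57). Without day 1 sham replicate 3 it was 2.83. Vwf, von Willebrand factor, had a log2 fold change of 0.05 (adjusted p = 0.95). Of 14 arterial genes 7 were tested, 1 rose and 2 fell, with a median of -0.24. Both that fell reached the minimum on under 4 MI plates, which favours a fall, and of the 3 genes that reached it on all 4 MI plates 1 rose and 0 fell, with a median of 0.68. Dll4, the Notch ligand of arteries and tip cells, rose by 1.21 (adjusted p = 0.0026), but did not pass against day 14 sham alone (log2 fold change 0.96) or with an endothelial share of at least 1.2% (1.14), where 0 of 10 arterial genes passed. Hey1, a Notch target, and Sox17, an arterial transcription factor, fell, at -2.11 and -1.48.

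In VEGF, angiopoietin, Notch and apelin signalling 16 of 20 genes were tested, 6 rose and 6 fell, with a median of -0.06. Flt4, Angpt2 and Apln were tested only because of their MI plates, and of the other 13 genes 3 rose and 6 fell, with a median of -0.57. Of the receptors, Flt4 (VEGF receptor 3) rose by 1.79. Flt4 is also a lymphatic marker and the one such marker tested, and the lymphatic list took a higher share of UMIs on every MI plate than on any sham plate, as given below. Its part in the rise was not tested. Flt1 (VEGF receptor 1) fell by 0.64 (adjusted p = 0.043) but kept this call in 9 of 32 alternative settings and lost it without any of 10 single plates, and Nrp1, a co-receptor of VEGF, fell by 1.09. Of the Notch receptors, Notch4 rose by 1.09 and Notch1 was at 0.44 (adjusted p = 0.21). The ligands Vegfa and Vegfb fell, at -2.60 and -2.18, but were lower in the endothelial than in the other wells of the sham plates (0.230 and 0.588 times).

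Basement membrane and integrin genes rose for the most part. Of 21 listed genes 18 were tested, 13 rose and 3 fell, with a median of 1.09, and 12 were separate between the groups. Col18a1 and Itga5 reached the minimum on under 4 sham plates and were tested only because of their MI plates. Of the 15 genes that reached it on at least 4 sham plates 11 rose and 3 fell, with a median of 1.06. Lamb2 and Itga1 reached it on under 4 MI plates, which favours a fall. Col18a1, the collagen chain that holds endostatin (chr10:77052178-77166548), was at 430.1, 537, 708 and 307 CPM on the MI plates against 31.7 ± 38.9 CPM (SD, n = 8) in sham, a log2 fold change of 3.77 (SE 0.43, adjusted p = 1.2e-07). Col4a1, a main chain of the basement membrane, rose by 1.27 from 1632 ± 468 CPM (SD, n = 8) to 4199 ± 433 CPM (SD, n = 4). The laminin chains Lamc1, Lamb1 and Lama4 rose by 1.58, 1.51 and 1.12, and the integrin chains Itga5 and Itgb1 by 1.66 and 1.00. Itga1, an integrin chain that binds collagen, fell by 0.97. Fn1, fibronectin, rose by 2.27, and Lamb2, a laminin chain, fell by 2.05, but both were lower in the endothelial than in the other wells (0.260 and 0.630 times). Fn1 was at 0.61 and did not pass with the deepest well of each plate left out.

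Actin and cytoskeleton genes rose in 16 of 17 tested genes of 20, and 1 fell. The median was 1.45, and 16 were separate between the groups. Tmsb10, an actin-binding thymosin (chr6:72957347-72958748), was at 1811, 2871, 2238 and 1936 CPM on the MI plates against 305 ± 148 CPM (SD, n = 8) in sham, a log2 fold change of 2.74 (SE 0.24, adjusted p = 2.6e-09). Pfn1, profilin, and Actb, beta-actin, rose by 2.64 and 2.06. The one that fell, Tpm1, encodes a tropomyosin that muscle expresses highly, and was 0.436 times as high in the endothelial as in the other wells of the sham plates. Of the 17 called genes 4, Tpm1 among them, were lower in the endothelial than in the other wells of the group where they were higher. Of 18 genes of mesenchymal transition 4 were tested, 3 rose and 0 fell, with a median of 1.74. Vim, the intermediate filament vimentin, was at 6617, 7079, 8882 and 5329 CPM and rose by 3.07 (SE 0.26, adjusted p = 1.5e-09). Tgfbr2, a TGF-beta receptor, also rose, and Zeb1, a transcription factor, was at 0.38 (adjusted p = 0.30).

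The study itself followed 11 secreted factors, 10 of which were tested. It found them as proteins in medium of ZEB2-overexpressing cardiomyocyte-like cells, with RNA reduced in infarcted hearts lacking Zeb2 in cardiomyocytes. The values here are RNA of endothelial wells. Of the 10 tested 6 rose and 2 fell, with a median of 0.74, and the list is not independent evidence of direction, since the study chose it. Tmsb4x, thymosin beta 4, was at 6680 ± 1171 CPM (SD, n = 4) on the MI plates and 3841 ± 655 CPM (SD, n = 8) in sham and rose by 0.72 (SE 0.22, adjusted p = 0.0090). Tmsb4x lost this call with a replicate block. With an endothelial share of at least 1.2%, on 1 MI plate, it was at 0.51 and did not pass, and 1 of the 10 factors rose and 0 fell. Ptma, prothymosin alpha, Clic1, an intracellular chloride channel protein, and Dynll1, a dynein light chain, rose by 0.93, 1.75 and 0.88. App, amyloid precursor protein, and Tapbp, tapasin, fell, at -0.79 and -1.21. Of 7 genes the study followed in cultured endothelial cells Kdr is a gene of the rule and was not tested. Of the other 6, 5 were tested (Flt1, Notch1, Mki67, Pcna and Cdk4), 3 rose and 1 fell, with a median of 1.73, with the same limit. Over all settings Pcna ran from 0.31 to 2.29 and Cdk4 from 0.28 to 2.04, while Mki67 kept its call in all 31. At an endothelial share of at least 1.2%, on 1 MI plate, Flt1 stood at 0.75.

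**Figure D3:**
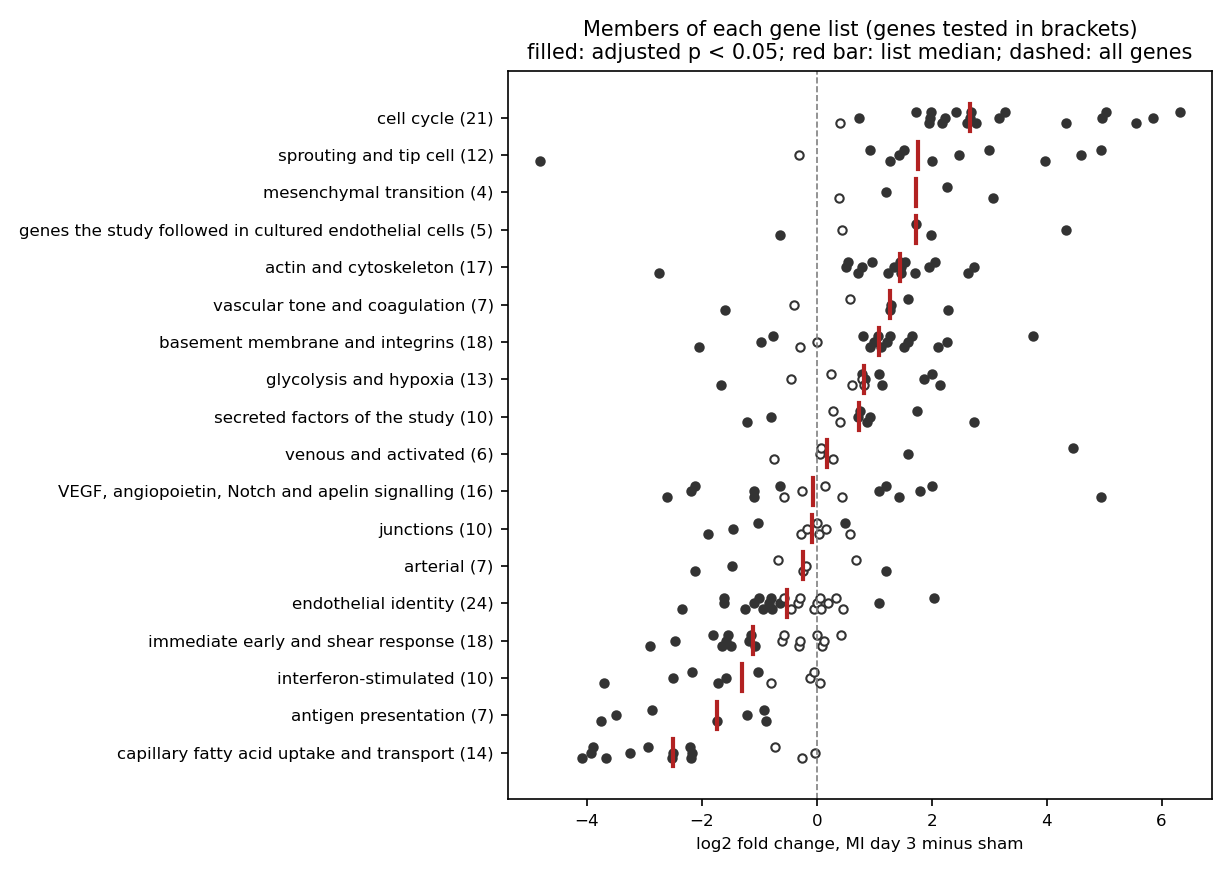
Log2 fold change of each tested gene, MI day 3 minus sham, by gene list, with the number of genes tested in brackets. Filled points passed an adjusted p of 0.05, red bars are list medians, and the dashed line is the median of all genes, 0.01. List medians ran from 2.67 for cell cycle genes to -2.51 for capillary fatty acid genes.

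Genes of antigen presentation fell in 7 of 7 tested genes of 13, with a median of -1.74. H2-K1, a class I heavy chain (chr17:33996017-34000347), was at 346, 398, 279 and 623 CPM on the MI plates, below the sham range of 741 to 2209 CPM, and fell by 1.74 (SE 0.27, adjusted p = 9.7e-06). H2-D1 and B2m, of the same complex, fell, at -0.89 and -0.92, and H2-T23, a class Ib chain, fell by 2.86, or by 4.64 without MI replicate 1. The class II chains H2-Ab1 and H2-Eb1 fell, at -3.75 and -3.49, but their sham plates were uneven. H2-Ab1 was at 0 and 8.42 CPM on 2 day 1 sham plates and at 1289 CPM on day 14 sham replicate 8, where all 42 of its UMIs came from the 1 well that held most of the macrophage marker UMIs, and the groups overlapped. Of the 7 genes 3 reached the minimum on under 4 MI plates, which favours a fall, and the other 4 fell with a median of -1.06. The class I genes share stretches of sequence, so reads may be split among them. On plates with at least 10 endothelial wells the list had 2 decreases among 10 tested genes, and with an endothelial share of at least 1.2%, on 1 MI plate, 0 among 11 (median -1.08), with H2-K1, H2-T23 and B2m among those that did not pass.

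Of 20 interferon-stimulated genes 10 were tested, 0 rose and 6 fell, with a median of -1.30. Ifit1, an antiviral RNA-binding protein, and the guanylate-binding proteins Gbp2 and Gbp4 fell, at -3.70, -2.50 and -2.17. The transcription factors Irf1 and Irf7 fell, at -1.71 and -1.57. Bst2, Ifitm2 and Ifitm3 were among those that did not pass. Of the 10, 8 reached the minimum on under 4 MI plates, which favours a fall and includes the 6 that fell, and of the other 2 neither passed. With no filter 9 of 20 fell, with wells chosen after thinning (added after the data were seen) 4 of 12 (median -0.54), and with an endothelial share of at least 1.2%, on 1 MI plate, 0 of 18. Of 18 immediate early and shear-response genes all 18 were tested, 0 rose and 10 fell, with a median of -1.10. Of the 10 that reached the minimum on all 4 MI plates 5 fell (median -0.84). Klf2 and Klf4, transcription factors that rise with shear stress, fell, at -1.49 and -1.64. Hspa1b, a heat shock protein, fell by 2.90, and Fos, a subunit of the AP-1 transcription factor, fell by 1.17, whereas Jun and Atf3, of the same family, stood at -0.30 and 0.43 and did not pass. The call of Fos was lost with plates of at least 1 endothelial well, and over all settings it ran from -2.60 to -0.52.

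Of 18 glycolysis and hypoxia genes 13 were tested, 7 rose and 1 fell, with a median of 0.83. The glycolytic enzymes Pkm, Pgam1 and Pgk1 rose by 2.14, 2.00 and 1.87, and Bnip3, a mitochondrial protein induced by hypoxia, fell by 1.67. All 8 called genes of the list were lower in the endothelial than in the other wells of the group where they were higher. Of 16 genes of vascular tone and coagulation 7 were tested, 4 rose and 1 fell, with a median of 1.28. Nos3, endothelial nitric oxide synthase, rose by 1.28 (adjusted p = 9.4e-04), Plat, tissue plasminogen activator, by 1.59, and Thbd, thrombomodulin, fell by 1.60. On plates with at least 10 endothelial wells the call of Nos3 was lost. At an endothelial share of at least 1.2%, on 1 MI plate, Nos3 stood at -0.08. Of 13 junction genes 10 were tested, 1 rose and 3 fell, with a median of -0.09. Jam2, a junctional adhesion molecule, fell by 1.90. The rise of F11r, another such molecule, was lost in 14 of 32 alternative settings, and the fall of Jam3 in 20 of 31. With an endothelial share of at least 1.2%, on 1 MI plate, the other lists gave 10 increases among 14 tested sprouting genes, 12 among 18 of basement membrane and integrins, 7 among 14 of the cell cycle, 7 among 17 of actin and cytoskeleton, 2 among 17 of VEGF, angiopoietin, Notch and apelin signalling, 4 among 12 of glycolysis and hypoxia, and 8 decreases among 18 immediate early genes.

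Marker lists of other cells were read in the same wells. All 10 cardiomyocyte genes fell, with a median of -6.97. Myh6, the alpha myosin heavy chain, had 0 UMIs on the MI plates and 3265 in sham, at least 1021-fold lower. Of 12 macrophage markers 2 were tested and 1 rose, Spp1, osteopontin, with 90 UMIs on the MI plates and 1 in sham and 0.0277 times the level of the other wells of the MI plates. Of 11 fibroblast markers 2 were tested and 1 fell, Gsn, an actin-severing protein, at -2.49, and of 9 mural markers 2 were tested and 1 fell, Rgs5. Lymphatic markers made up 0.0239% to 0.0927% of UMIs on the MI plates and 0.0031% to 0.018% on the sham plates. Lyve1 had 99 UMIs in MI and 12 in sham, and 34 UMIs of Mmrn1 and 28 of Reln came from MI replicate 2 alone, while Prox1, the defining lymphatic factor, had 1 and 3. Capg, an actin-capping protein, and Hmox1, heme oxygenase, rose by 3.98 and 3.75 but were 0.747 and 0.104 times as high in the endothelial as in the other wells of the MI plates. The part of RNA from other cells in these values was not tested.

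Because MI wells were deeper, each well was also thinned to 1000 UMIs, and the share of endothelial wells with at least 1 UMI was compared over plates for 7 genes. The smallest p this design can give is 0.0040. Apln was seen in 14.3%, 25.0%, 33.3% and 10% of the wells of MI replicates 1 to 4, a mean of 20.7% ± 10.5 (SD, n = 4), and in 2.95% ± 5.48 (SD, n = 8) on sham plates, with a highest sham plate of 12.5% (exact permutation test over plates, two-sided, adjusted p = 0.028). In the macrophage wells of the MI plates its share was 1.21%. Mki67 was seen in 57.1%, 16.7%, 22.2% and 30.0% of MI wells, against 3.82% ± 8.78 (SD, n = 8) in sham (adjusted p = 0.028, the same permutation test) and 10% of the macrophage wells. Its highest sham plate, at 25.0%, lay above MI replicates 2 and 3. On MI replicate 2 alone the share of Mki67 in macrophage wells, 23.5%, exceeded that in endothelial wells. Leaving out 1 plate gave differences from 13.5 to 21.3 percentage points for Apln and from 19.1 to 32.6 for Mki67. With 3 MI plates the smallest p is 0.012, which is 0.085 when adjusted over 7 genes if 1 gene reaches it, so the calls lost without an MI plate (replicate 1, 2 or 3 for Apln and any replicate for Mki67) do not show whether they are stable.

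Cd36 was seen in 14.3%, 16.7%, 22.2% and 60.0% of MI wells and in 97.0% ± 3.00 (SD, n = 8) of sham wells, with no overlap (adjusted p = 0.028, exact permutation test). The share in macrophage wells was 23.3%. Leaving out 1 plate gave differences from -79.3 to -64.0 percentage points. The adjusted p was 0.085 without MI replicate 1 or 2 (the same permutation test), the smallest that design gives 1 gene alone. Plvap reached 42.9%, 33.3%, 0% and 20% on the MI plates against a sham mean of 0.814% and did not pass (adjusted p = 0.064). Gpihbp1 at 45.2% and 57.6%, Vwf at 10.7% and 5.24% and Cldn5 at 21.6% and 23.6% in MI and sham did not pass either (adjusted p = 0.13, 0.23 and 0.80). Without thinning the MI and sham shares were 59.1% and 4.71% for Apln, 61.3% and 6.04% for Mki67, 80.0% and 99.6% for Cd36, 62.7% and 1.18% for Plvap, 92.6% and 79.3% for Gpihbp1, 57.0% and 14.0% for Vwf, and 66.6% and 42.4% for Cldn5.

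Within a well, the summed share of a list in its UMIs showed how far single cells differed. The median MI well gave 0.799% of its UMIs to the cell cycle list, against 0.177% and 0.188% in day 1 and day 14 sham wells. The MI wells ran from 0.253% to 2.77%, and the highest sham well, the well of day 14 sham replicate 8 described above, reached 1.29%. The plate medians were 1.38%, 0.697%, 0.894% and 0.473% for MI replicates 1 to 4 and 0.135% to 0.219% for the sham plates. For the sprouting list the median well was at 1.24% in MI, 0.377% in day 1 sham and 0.402% in day 14 sham. For the capillary fatty acid list it was at 0.285%, 1.72% and 1.31%, and for antigen presentation at 0.363%, 0.588% and 0.810%. The MI plate medians were separate from the sham plate medians in all 4 lists. The ranges of single wells overlapped, since the lowest MI well held 0.0719% for sprouting and the highest 1.88% for the capillary list. These wells share plates, and their spread is a description.

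**Figure D4:**
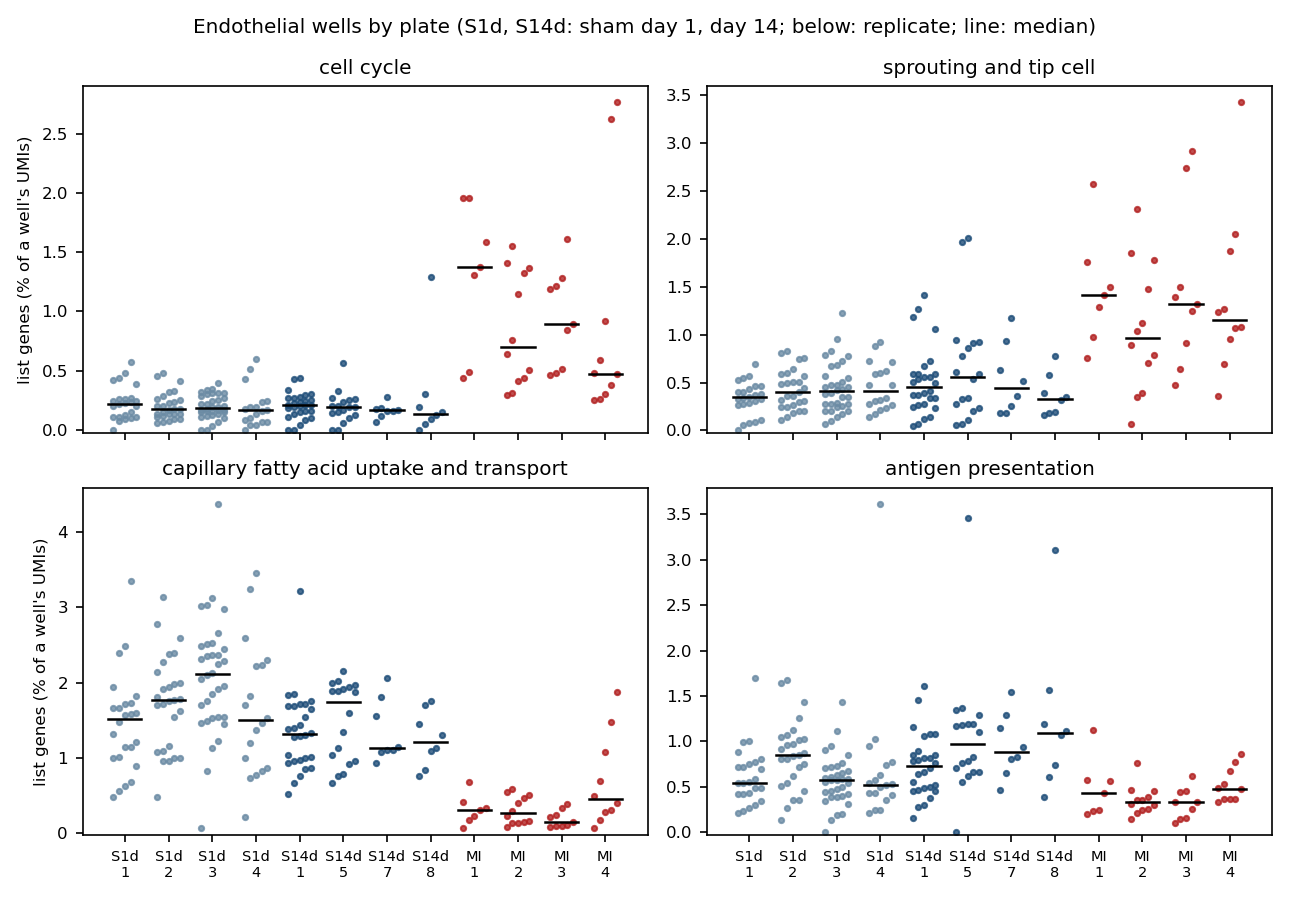
Percentage of the UMIs of each endothelial well that fell on 4 gene lists, 1 point a well, by plate of day 1 sham, day 14 sham and MI. The plate medians of MI lay between 0.473% and 1.38% for the cell cycle list and between 0.145% and 0.445% for the capillary fatty acid list, against 0.135% to 0.219% and 1.13% to 2.11% on sham plates.

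MI was also set beside IR of the same day, in a fit of 4523 genes over 6 groups, where IR had 2 plates. The direct contrast of MI with IR changed 297 genes (6.57%), 96 higher in MI (2.12%) and 201 lower (4.44%), and 287 (6.35%) had separate plates. Without IR replicate 4 the count was 108, without IR replicate 7 it was 141, and with wells thinned to 1000 UMIs it was 47 of 396 genes. The IR against sham contrast, which shares the sham plates with the MI against sham contrast, changed 87 genes (1.92%), 78 higher (1.72%) and 9 lower (0.199%), 74 with separate plates (1.64%). The medians of all genes were 0.06 and -0.05. Cardiomyocyte RNA differed here too, since 11 of the 18 IR wells and 0 of the 38 MI wells held over 1% of cardiomyocyte UMIs. By the criteria used for the increases above, the 5 genes most reduced in MI against IR were Xirp2, Fcrls, Mapt, Myoz2 and Ccr2. These criteria leave out genes lower in the endothelial than in the other wells, among them all 10 cardiomyocyte markers. Xirp2 and Myoz2 are of striated muscle and Fcrls and Ccr2 of myeloid cells. The calls of Fcrls and Ccr2 were lost by DESeq2, that of Ccr2 also without IR replicate 4 or 7 and that of Mapt without IR replicate 7, while Xirp2 and Myoz2 kept theirs in every setting in which they were tested. All 10 cardiomyocyte markers were lower in MI than in IR, and 5 of 12 macrophage markers were. The 12 macrophage markers had a median of 3.21 in IR minus sham, with 8 higher.

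Part of the sprouting genes differed between the injuries. Of 18 tested 5 were higher in MI than in IR and 0 lower, with a median of 2.35, although 1 was lower at an unadjusted p under 0.05 and by DESeq2. In IR minus sham 0 passed in either direction by edgeR, with 2 higher and 2 lower at an unadjusted p under 0.05 and a median of 0.38. Igfbp3 was at 10.2 and 0 CPM on the 2 IR plates and at 783 CPM or more on the MI plates, a log2 difference of 7.24 (SE 1.09, adjusted p = 1.3e-05). Apln was at 10.2 and 53.0 CPM on the IR plates, and MI exceeded IR by 4.18 (adjusted p = 0.026). Mcam and Mmp14 were higher in MI by 2.66 and 3.10 (adjusted p = 0.0012 and 0.0040).

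Cell cycle genes were raised after both injuries, with fewer calls for IR, which had 2 plates. In IR minus sham 4 of 26 rose and 0 fell by edgeR, with a median of 2.18. At an unadjusted p under 0.05, 15 were higher and 0 lower. The 4 called were Pcna at 2.49 (adjusted p = 2.9e-05), H2afz at 2.39 (adjusted p = 1.6e-04), Rrm2 at 3.91 (adjusted p = 0.0056) and Mcm6, a DNA helicase subunit, at 2.33 (adjusted p = 0.0085). In MI minus IR 4 were higher and 0 lower, with a median of 1.52, and 13 were higher and 0 lower at an unadjusted p under 0.05. The 4 called were Cks2, a cyclin-dependent kinase subunit with no UMI on the IR plates, and the microtubule genes Stmn1, Tubb5 and Tuba1b. Without IR replicate 4 the call of Cks2 was lost. The difference of Cdk1 did not pass (2.10, adjusted p = 0.17). For the capillary fatty acid list 3 of 14 were lower in MI than in IR, with a median of -1.33 (Cd36, Lpl and Cd300lg), and 1 of 14 was lower in IR than in sham, Car4, with a median of -0.98. At an unadjusted p under 0.05, 5 of 14 were lower and 0 higher in each of these contrasts. Cd36 was at 3771 and 2118 CPM on the IR plates, above every MI plate, and was lower by 2.00 on the log2 scale in MI (SE 0.48, adjusted p = 0.0065). Actin genes were higher in MI than in IR in 8 of 19, with 1 lower and a median of 1.16, and 0 of 19 passed in IR minus sham by edgeR, with 4 higher and 0 lower at an unadjusted p under 0.05. Col15a1, a collagen of basement membranes, rose in IR minus sham by 2.36 (adjusted p = 0.034) and in MI minus sham by 2.11.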

How the data were processed

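Single cardiac cells in 384-well plates were profiled by SORT-seq. The deposited counts are UMIs per gene and well, which the authors made after mapping with BWA to GRCm38 (mm10); versions are not given in the sources used here. All 174110208 values of the 36 plates were whole numbers. Rows of mitochondrial genes and ERCC spike-ins were left out. The members and lists were chosen with earlier results of these data known.

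UMIs were summed over the endothelial wells of each plate with at least 5 such wells, so that MI replicate 5 (3 wells) and day 14 sham replicate 6 (2 wells) entered only the share of wells. Day 14 sham replicates 2, 3 and 4 were left out. Summed UMIs per plate, 19322 to 297581, set the precision of each value. Genes were tested with the quasi-likelihood F test of edgeR 4.0.16 in R 4.3.3 (filterByExpr, which kept genes at 89.1 CPM or more, 10 UMIs at the median summed depth, on at least 4 plates, TMM, Benjamini-Hochberg adjustment over all genes tested, threshold 0.05), MI minus the mean of the 2 sham groups. The contrasts with IR came from 1 fit of 6 groups. Shares of wells were compared by exact permutation over plates (scipy 1.17.1). The 21 genes of the rule were not tested. CPM values are unscaled, and fold changes follow TMM factors of 0.9103 to 1.0863. In counts simulated for the MI and sham comparison (2863 genes) edgeR found 50% of genes changed by a log2 of 1 and 97% of those changed by 2 (100 genes each), and called 11 genes that had no change.

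Named genes were the 12 of each direction with the largest change among called genes whose groups did not overlap and whose level was at least that in other wells, 3 of each direction that failed only this last point, up to 4 of each list by adjusted p, and 5 of each direction between MI and IR. Further list members named as examples were chosen after their values were seen, and some genes are not reported here. Coordinates of 140 of the 142 named genes come from GENCODE vM21. Alternatives were RLE scaling, DESeq2 1.42.0, no filter, other well limits, thinning, each sham group alone, a replicate block and leaving out each plate or the deepest well of each. Same-numbered plates did not deviate together.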

Additional observations from a re-analysis of the deposited data

Results flagged for a closer look

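Within each group of 4 plates the highest or lowest plate was compared with its nearest neighbour by Dixon's ratio, and 44 of 372 groups (11.8%) had a plate that stood apart. Chance gives about 1 in 20, but in 22 of the 44 the other 3 plates were at 0 CPM, where any UMI on the fourth plate makes it stand apart, so that rate does not apply to sparse genes. Day 14 sham replicate 8 had the most of these. Its macrophage markers were at 0.261% of UMIs (nearest 0.0180%), and cell cycle genes stood above the other plates of its group, with Cdk1 at 92.0 CPM, Cks2 at 61.4, H2afz and Mki67 at 460.2 each, and Rrm2, Tk1 and Lmnb1 at 30.7 each. A single well of 9580 UMIs held 80 of the 85 macrophage marker UMIs of that plate, all 3 of Cdk1, both of Cks2, 12 of 15 of H2afz, 13 of 15 of Mki67 and the 1 UMI each of Rrm2, Tk1 and Lmnb1, and 124 of the 156 UMIs of the cell cycle list. Antigen presentation genes made up 3.11% of its UMIs. Pgk1, a glycolytic enzyme, was at 460.2 CPM there and Fmo2 at 123 CPM. Each of the 30.7 CPM values is 1 UMI.

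Among the MI plates, replicate 4 stood highest for 4 genes that fell, with Lpl at 546 CPM, Timp4 at 173, Cdkn1c at 57.5 and Slc26a10 at 28.8, and had Zeb2, a transcription factor, at 47.9. On MI replicate 3 Mmp14 stood at 1138 CPM and Fcrls at 7.53. On MI replicate 2 Alpl was at 7.73 CPM and Ttn at 3.86.

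In day 1 sham, replicate 1 had Cxcr2, a chemokine receptor of neutrophils, at 733 CPM and Cks2 at 8.42. Replicate 2 had H2-K1 at 1619, Slc26a10 at 559 and Spp1 at 9.47 CPM. Replicate 3 had cardiomyocyte markers at 1.62% of UMIs, Lrg1 at 192 CPM, Plvap at 23.5, Akr1b8 and Rrm2 at 11.7 each, and Prnd and Tk1 at 3.91 each. Replicate 4 had Mmp14 at 95 CPM and Lmnb1 at 10.6.

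In day 14 sham, replicate 1 had Tmsb4x lowest at 3293 CPM, Mgp at 430.2, Plvap at 106, Tubb6 at 28.2, Fam167b at 14.1 and Dbn1 at 7.05. Replicate 5 had Fos at 1881 CPM, Tcf15 at 657 and Prnd at 129. Replicate 7 had Il6st, a cytokine receptor chain, lowest at 0 CPM and Akr1b8 at 51.8. Between the sham groups Actc1, cardiac actin, differed by a log2 of -2.29, day 1 minus day 14 (edgeR, adjusted p = 3.1e-04), so that its fall in MI was not the same against each sham group.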

How the results depend on the processing

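The lower share of endothelial wells kept its direction and call under every setting run (-28.0 to -12.6 percentage points, -17.8 to -15.6 leaving out 1 plate). Against sham the count of called genes was within 1.5 times of 1377 except with no filter on low counts (2401, 59.9% of them higher), wells thinned to 1000 UMIs (142 of 263 tested) and an endothelial share of at least 1.2% (239), where MI replicate 4 alone was left and was assumed to vary like the others. Leaving out 1 plate gave 1179 to 1566. With a replicate block the count was 1125, and the numbers did not pair the plates (correlation of deviations -0.017 to 0.023 for same-numbered plates). Between MI and IR the count was 47 after thinning and 108 to 320 without 1 plate (108 without IR replicate 4, 141 without IR replicate 7), against 297. After thinning, the share of wells with a UMI differed between MI and sham by 13.5 to 21.3 points for Apln, 19.1 to 32.6 for Mki67, -79.3 to -64.0 for Cd36, 17.0 to 31.2 for Plvap (passing without MI replicate 3) and -17.4 to -8.53 for Gpihbp1 (passing without day 14 sham replicate 8) when 1 plate was left out. Of 114 named genes tested against sham 103 were called, and 50 of these kept the call in every setting in which they were tested. Dll4 and Tmsb4x were not called with the replicate block (0.93 and 0.79), nor was Mapt between MI and IR, and antigen presentation then had 4 decreases among 7 genes. Flt1 lost its call in 23 settings and Lrg1 in 12. At an endothelial share of at least 1.2% the sign turned for F11r (-0.10), Flt1 (0.75), Jam3 (0.07), Lrg1 (-5.22) and Nos3 (-0.08), and with wells chosen after thinning, a setting added after the data were seen, for Mgp (2.43). The cause was not tested.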

Other observations

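Several genes of leukocyte traffic did not reach the minimum for testing and are given by UMIs pooled over plates. They were chosen after their values were seen, as was leaving out each plate in turn. Selp, P-selectin, had 80 UMIs on the MI plates and 7 on the sham plates, a ratio of CPM of 12.2 (19.8 without day 1 sham replicate 3), and Sele, E-selectin, had 8 and 0, at least 2.84-fold higher with a floor of 3 UMIs over the sham group. Without MI replicate 4 Sele had 3 and 0 UMIs. Cxcr4, the receptor of the chemokine Cxcl12, had 113 and 33 UMIs, a ratio of 3.65, but reached 728 CPM on MI replicate 4. Without that plate it had 37 and 33 UMIs and a ratio of 1.38.

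Of the mesenchymal transition list, S100a4 had 42 UMIs on the MI plates and 2 in sham (ratio 22.4, or 40.7 without day 14 sham replicate 5) and Snai1, a transcription factor, 33 and 5 (ratio 7.04, or 24.6 without day 1 sham replicate 3), whereas Zeb2 had 9 and 24, a ratio of 0.40 with a 95% counting interval of 0.164 to 0.891. Zeb2 was at 47.9 CPM on MI replicate 4, and without that plate the ratio was 0.205. Lgals3, galectin-3, a member of the macrophage marker list, had 48 and 0 UMIs, at least 17.1-fold higher. Other members of that list went both ways, with 65 and 7 UMIs for Ccl6, 17 and 19 for Tyrobp and fewer in MI for Cd74. The part of macrophage RNA in the rise of Lgals3 was not tested. Slc2a1, a glucose transporter, had 68 and 8 UMIs (ratio 9.06). In the other direction the class II genes Cd74 and H2-Aa had 5 UMIs each on the MI plates against 246 and 164 in sham (ratios 0.0217 and 0.0325). The ratio of Cd74 was 0.00998 without MI replicate 4 and 0.0396 without day 1 sham replicate 3, and that of H2-Aa 0.052 without MI replicate 1. The pericyte genes Notch3 and Vtn had 0 on the MI plates against 58 and 68. Without day 1 sham replicate 2 Notch3 had 30 sham UMIs.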
